A study of Mus musculus with 24 samples.

Results

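The 10 oxidative stress defence genes described here are Srxn1, Txnrd1, Gclc, Gclm, Gsr, Nqo1, Hmox1, Slc7a11, Prdx1 and Nnt, out of 21957 genes named in the array table. They were taken by symbol, each read from its probe set with the highest mean. Of the 10, 9 have a probe set of their own, and 8 were bright enough to test among 14411 genes. Each of these 8 exceeded a log2 value of 5 on all 24 arrays, so no group decided which of them were tested. Prdx1, a peroxiredoxin, is covered only by 3 probe sets shared with other symbols and was not analysed here. Slc7a11, the cystine importer, stayed under 5 on all 24 arrays and was not tested.

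RNA of whole adrenal glands was hybridised to 24 arrays, 4 for each of 6 groups of 7-month-old mice on a mixed sv129-C57Bl/6 background. The question of the design is what loss of Prkar1a, a regulatory subunit that restrains protein kinase A, does to the gland in each sex and after gonadectomy (GDX). KO females, KO GDX males and KO intact males all had the genotype Prkar1afl/fl;cre/+;mTmG/mTmG, in which Cre sits in the locus of the aldosterone synthase gene Cyp11b2 and mTmG is a fluorescent reporter allele of Cre activity. WT females were Prkar1afl/+;cre/+;mTmG/mTmG, which leaves 1 intact Prkar1a allele in Cre-bearing cells. WT intact males were Prkar1afl/fl;+/+;mTmG/mTmG, without Cre. The WT GDX males were mixed. Their array 1 was Prkar1a+/+;+/+;mTmG/mTmG, array 2 Prkar1a+/+;cre/+;mTmG/+, array 3 Prkar1a+/+;cre/+;mTmG/mTmG and array 4 Prkar1afl/+;cre/+;mTmG/mTmG. In intact males, and in part in GDX males, the Cre allele and the deletion therefore cannot be told apart. Comparisons between WT groups, and differences between KO effects, also carry these allele differences, so sex or GDX cannot be told apart from genotype there. GDX males had been gonadectomised for the last 2 months. The labels call the arrays of a group biological replicates.

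Cells remove peroxides with 2 linked thiol systems, glutathione and thioredoxin, both of which are recharged by NADPH. The transcription factor NRF2 (Nfe2l2), held in check by KEAP1, switches on many of their genes through antioxidant response elements in promoters and enhancers. Steroid-making cells of the adrenal cortex produce reactive oxygen at their mitochondrial cytochromes P450 and rely on these systems; loss of the mitochondrial enzyme NNT is known to impair adrenal steroid production in humans and mice.

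The promoters of the genes that led the result in females, Srxn1 and Txnrd1, are shown with that of Gclm. Apart from alternative settings given below, Gclm did not pass the test in any comparison. Sequences are those of RefSeq (GRCm38.p6), from 250 bases before to 50 after an annotated start, 5′ to 3′ on the gene's strand. Capitals mark matches on either strand to an antioxidant response element core, searched as TGACNNNGC or TGAGNNNGC. The windows are Srxn1 at chr2:152105274-152105573 (plus strand), 1 of 3 annotated starts of Txnrd1 at chr10:82858956-82859255 (plus strand) and Gclm at chr3:122245307-122245606 (plus strand).
Srxn1: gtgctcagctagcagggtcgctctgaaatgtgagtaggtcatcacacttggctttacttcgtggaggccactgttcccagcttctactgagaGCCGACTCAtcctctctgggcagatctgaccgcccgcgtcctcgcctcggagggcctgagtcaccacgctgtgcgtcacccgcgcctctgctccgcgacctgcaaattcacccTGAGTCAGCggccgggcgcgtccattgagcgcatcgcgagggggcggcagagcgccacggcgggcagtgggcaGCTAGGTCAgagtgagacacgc
Txnrd1: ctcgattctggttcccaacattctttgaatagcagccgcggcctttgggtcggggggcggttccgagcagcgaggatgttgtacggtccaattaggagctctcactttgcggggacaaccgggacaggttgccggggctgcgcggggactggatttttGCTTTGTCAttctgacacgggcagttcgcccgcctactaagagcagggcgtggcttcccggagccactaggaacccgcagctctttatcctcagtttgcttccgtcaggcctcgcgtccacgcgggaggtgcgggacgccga
Gclm: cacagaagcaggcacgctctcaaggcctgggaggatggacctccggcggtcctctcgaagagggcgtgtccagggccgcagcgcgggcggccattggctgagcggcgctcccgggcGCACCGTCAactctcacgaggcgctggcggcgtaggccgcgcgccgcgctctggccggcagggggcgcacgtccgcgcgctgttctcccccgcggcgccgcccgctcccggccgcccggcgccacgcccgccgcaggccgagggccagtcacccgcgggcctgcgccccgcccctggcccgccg
Srxn1 holds 3 matches, and the one at -45 to -37 from the start overlaps an AP-1 site, searched as TGAGTCA. Txnrd1 and Gclm hold 1 each, at -92 to -84 and at -134 to -126. The other Txnrd1 windows and the Nqo1 window hold no match, Slc7a11 holds 1 match and Prdx1 holds 2. Sequence outside these windows was not searched. Promoters were listed for 6 of the 10 genes. A match stands in 5 of these 6 genes and in 30.8% of all genes listed; an AP-1 site stands in 5.2% of all promoters. A match is a description of letters and not a site of binding. Promoters of Gclc, Gsr, Hmox1 and Nnt are not shown.

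The label check on Prkar1a itself came first. Its log2 level averaged 7.08 ± 0.32 in KO females and 8.51 ± 0.05 in WT females, 7.60 ± 0.30 in KO GDX males and 8.79 ± 0.16 in WT GDX males, and 7.89 ± 0.69 in KO intact males and 8.82 ± 0.10 in WT intact males (SD, n = 4 each). Every KO array lay under every WT array of its own comparison, though the change in intact males did not pass the limma test (adjusted p 0.16). Array medians lay between 5.2 and 5.29, and no 2 arrays were identical. The cortex marker list (8 genes) averaged between 11.90 and 12.23 on every array. Of the cortex list 4 of 8 members rose in KO females, and of the zona glomerulosa list 6 of 6 fell there. In RNA of a whole gland, fewer cells of a type and less RNA per cell cannot be told apart.

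In females, 5 of the 8 genes tested were higher in KO than in WT glands and none was lower (limma, adjusted p under 0.05). Of all genes tested, 13.9% passed as higher and 18.7% as lower in this comparison. The 8 genes were chosen with earlier results of these data known, so the shares do not test an excess. The genes that rose were Srxn1, Txnrd1, Gsr, Gclc and Nqo1, by 1.24-fold to 1.86-fold. Gclm, Hmox1 and Nnt did not pass the test. The median change of the 8 genes was 0.35 on the log2 scale, beside -0.02 for all genes.

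Srxn1 encodes sulfiredoxin, which restores over-oxidised peroxiredoxins. Its log2 levels were 8.80, 8.73, 8.64 and 8.67 in KO females, against 7.62, 7.97, 7.76 and 7.91 in WT females. All KO arrays stood above all WT arrays, by a change of 0.90 ± 0.12 (log2 ± standard error, limma adjusted p 6.27e-06), which is 1.86-fold. Txnrd1 encodes cytosolic thioredoxin reductase, which recharges thioredoxin from NADPH. Its log2 levels were 9.36, 9.22, 9.08 and 9.32 in KO females, against 8.63, 8.62, 8.40 and 8.50 in WT females. Again no KO array reached down to the WT arrays, and the change was 0.71 ± 0.08 (limma adjusted p 2.21e-06), or 1.63-fold.

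Gsr encodes glutathione reductase, the corresponding enzyme of the glutathione system. Its log2 levels were 8.90, 8.80, 8.86 and 8.94 in KO females, against 7.93, 8.37, 8.23 and 8.41 in WT females. The KO arrays were close together and above all WT arrays, with a change of 0.64 ± 0.13 (limma adjusted p 0.000762). Gclc, the catalytic subunit of glutamate-cysteine ligase, starts glutathione synthesis. It stood at 8.83, 8.64, 8.36 and 8.57 in KO females, against 8.12, 8.22, 8.16 and 8.34 in WT females. The groups were apart by a narrow margin, and the change was 0.39 ± 0.10 (limma adjusted p 0.00415).

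Gclm, the modifier subunit of the same ligase, stood at 8.62, 8.62, 8.35 and 8.52 in KO females, against 8.47, 8.46, 8.42 and 8.39 in WT females. These arrays overlapped and the change of 0.09 did not pass the test (95% interval -0.03 to 0.22, limma adjusted p 0.262). It passed as higher without KO female array 3 and with arrays centred on their median (limma adjusted p down to 0.0383). Nqo1, a quinone reductase, was dim, at 5.59, 5.55, 5.43 and 5.51 in KO females, against 5.16, 5.05, 5.38 and 5.26 in WT females. Its arrays did not overlap and its change was 0.31 ± 0.11 (limma adjusted p 0.0382). This call was lost under 10 of 18 alternatives, among them leaving out WT female array 1, 2 or 4 or KO female array 1, 2 or 4.

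Hmox1, haem oxygenase, stood at 6.91, 6.98, 6.58 and 6.89 in KO females, against 7.51, 6.99, 6.96 and 6.58 in WT females, with overlap (change -0.17, limma adjusted p 0.443). Nnt, the mitochondrial transhydrogenase that makes NADPH, stood at 9.56, 9.88, 9.69 and 9.87 in KO females, against 9.76, 9.90, 9.94 and 10.40 in WT females. Those arrays overlapped too (change -0.25, limma adjusted p 0.397). In all, 5 of the 8 genes had KO female arrays wholly above WT female arrays, beside 14% of all genes tested.

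**Figure D1:**
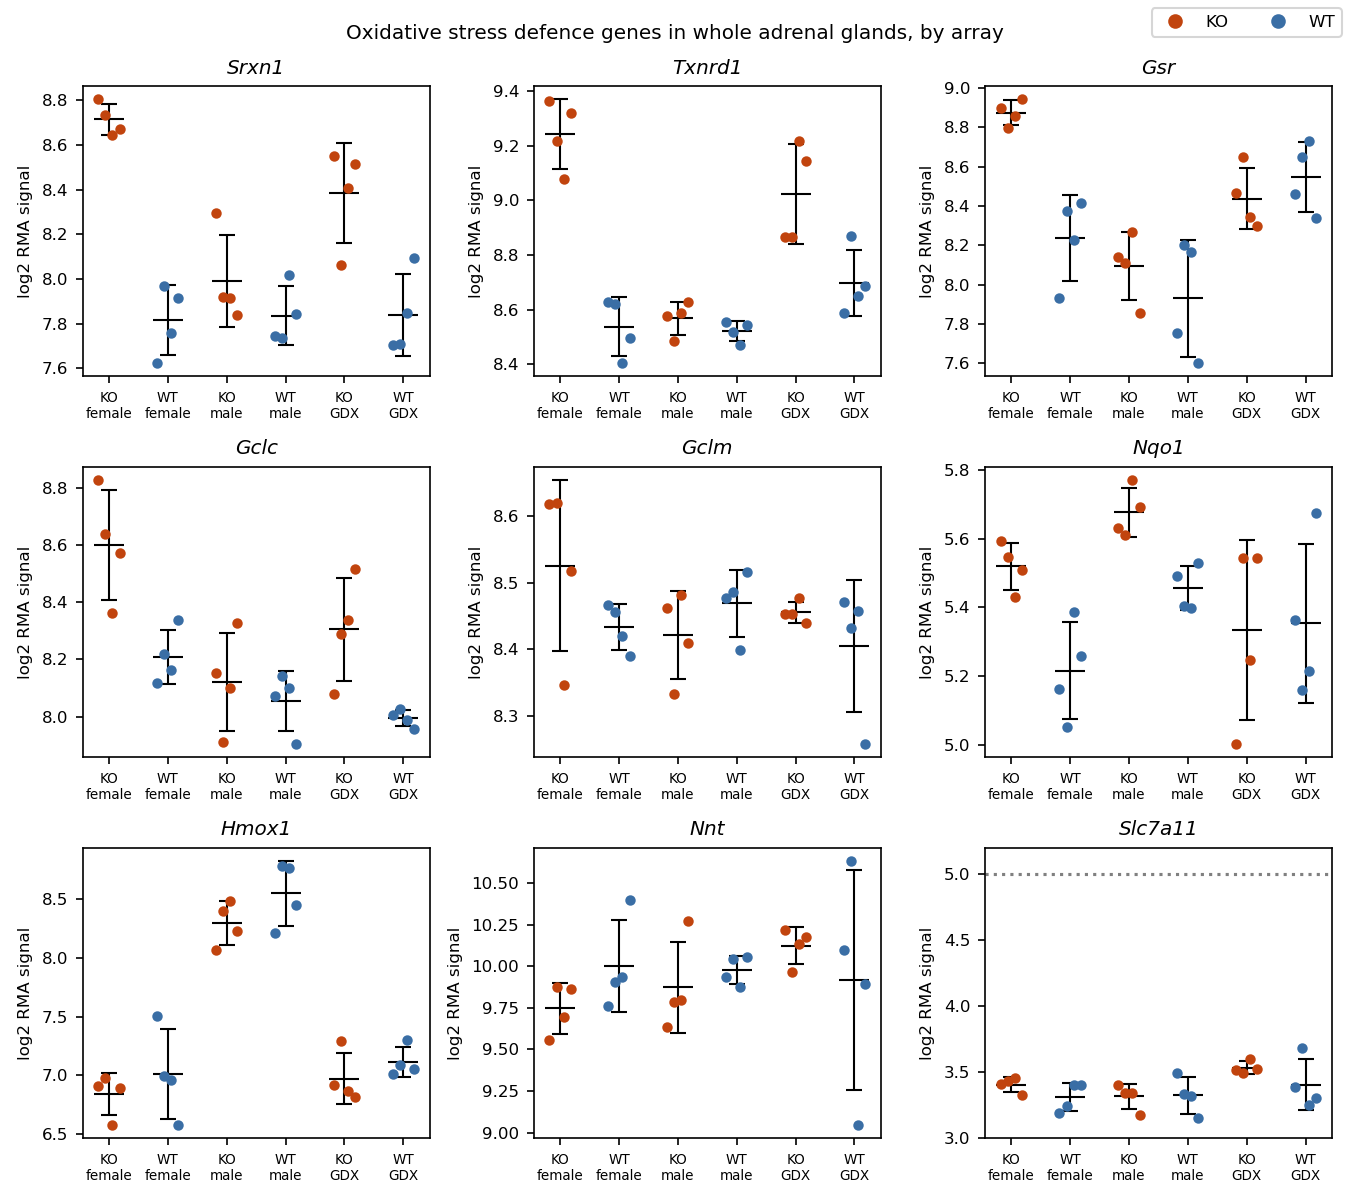
Log2 level of each measured gene on every array, by group, with KO left of WT in females, intact males (male) and GDX males; points are arrays, lines the group mean ± SD (n = 4), and the dotted line for Slc7a11 the minimum of 5. Srxn1, Txnrd1, Gsr and Gclc are highest in KO females, while Hmox1 is highest in intact males of both genotypes.

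Markers of other cell types moved in the same glands. The medulla list averaged 8.45 to 9.05 in KO females, against 9.09 to 9.49 in WT females, and 10 of its 13 members fell. The adipocyte list averaged 7.61 to 8.42 in KO females, against 8.71 to 9.76 in WT females (7 of 9 fell). The macrophage list averaged 7.28 to 8.29 in KO females, against 6.83 to 7.20 in WT females (4 of 14 rose), and the capsule list 7.00 ± 0.14 in KO females, against 7.94 ± 0.06 in WT females (SD, n = 4 each; 8 of 11 fell). With the medulla, adipocyte or macrophage mean as a covariate, the calls of Srxn1, Txnrd1 and Gsr held. That of Gclc was lost with the medulla mean (adjusted p 0.068) and the adipocyte mean (adjusted p 0.0524), and that of Nqo1 with each of them. Nnt, not called otherwise, passed as lower with the adipocyte mean (limma adjusted p 0.0216). The capsule mean and the zona glomerulosa mean (7.03 to 7.71 in KO females, against 9.20 to 9.65 in WT females) were not entered as covariates. Any further part of these cells in the result was not tested.

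In GDX males, 2 of the 8 genes were higher in KO than in WT glands, Srxn1 and Txnrd1, beside 2.26% of all genes called higher. The number of all genes called in either direction, 609, was 214 to 1180 without single arrays. It was 1180 without KO GDX array 1, 391, 214 and 225 without KO GDX array 2, 3 and 4, and 281 and 287 without WT GDX array 2 and 3. Srxn1 stood at 8.55, 8.06, 8.41 and 8.51 in KO GDX males, against 7.70, 7.71, 7.85 and 8.09 in WT GDX males. KO array 2 lay just under WT array 4, and the others were apart. The change was 0.54 ± 0.12 (limma adjusted p 0.0101), or 1.46-fold. Txnrd1 stood at 8.87, 8.87, 9.22 and 9.14 in KO GDX males, against 8.59, 8.87, 8.65 and 8.69 in WT GDX males. WT array 2 met the lowest KO arrays, and the change was 0.33 ± 0.08 (limma adjusted p 0.0301).

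These 2 calls depended on the fit. With the GDX arrays alone and the replicate number as a block, chosen once the data had been seen, the change of Srxn1 was 0.54 ± 0.10 with an adjusted p of 0.0718 and that of Txnrd1 0.33 ± 0.11 with an adjusted p of 0.205. The Txnrd1 call was also lost without WT GDX array 1, 3 or 4, or without KO GDX array 3 or 4 (adjusted p 0.0533 to 0.129).

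Gclc stood at 8.08, 8.29, 8.34 and 8.52 in KO GDX males, against 8.01, 8.02, 7.99 and 7.96 in WT GDX males. All KO arrays lay above all WT arrays, yet the change of 0.31 ± 0.10 missed the threshold (limma adjusted p 0.0739, or 0.0202 without KO GDX array 1). It was the only one of the 8 genes with arrays wholly above, beside 4.59% of all genes. Gsr stood at 8.47, 8.65, 8.35 and 8.30 in KO GDX males, against 8.46, 8.65, 8.73 and 8.34 in WT GDX males. These overlapped throughout (change -0.11, 95% interval -0.38 to 0.16, limma adjusted p 0.714).

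In intact males, 0 of the 8 genes were called in either direction with limma, beside 0.111% of all genes. An unadjusted p under 0.05 was reached by 0 of the 8, beside 1080 of all 14411 genes. Srxn1 stood at 8.30, 7.92, 7.91 and 7.84 in KO intact males, against 7.74, 7.74, 8.02 and 7.84 in WT intact males. Apart from KO array 1 the arrays shared 1 range, and the change was 0.16 (95% interval -0.08 to 0.40). Prkar1a itself stood at 6.89, 8.08, 8.47 and 8.13 on these KO arrays in the same order, lowest on array 1. The part of this uneven loss in the results of intact males was not tested. Txnrd1 stood at 8.58, 8.49, 8.59 and 8.63 in KO intact males, against 8.56, 8.52, 8.47 and 8.55 in WT intact males, a change of 0.05 (95% interval -0.13 to 0.22). Gsr and Gclc differed by 0.16 and 0.07, also with overlap.

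Nqo1 stood at 5.63, 5.61, 5.77 and 5.69 in KO intact males, against 5.49, 5.40, 5.40 and 5.53 in WT intact males. It was the only one of the 8 whose KO arrays lay wholly above WT, beside 2.28% of all genes, and its change of 0.22 ± 0.11 did not pass the test (limma adjusted p 0.682).

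**Figure D2:**
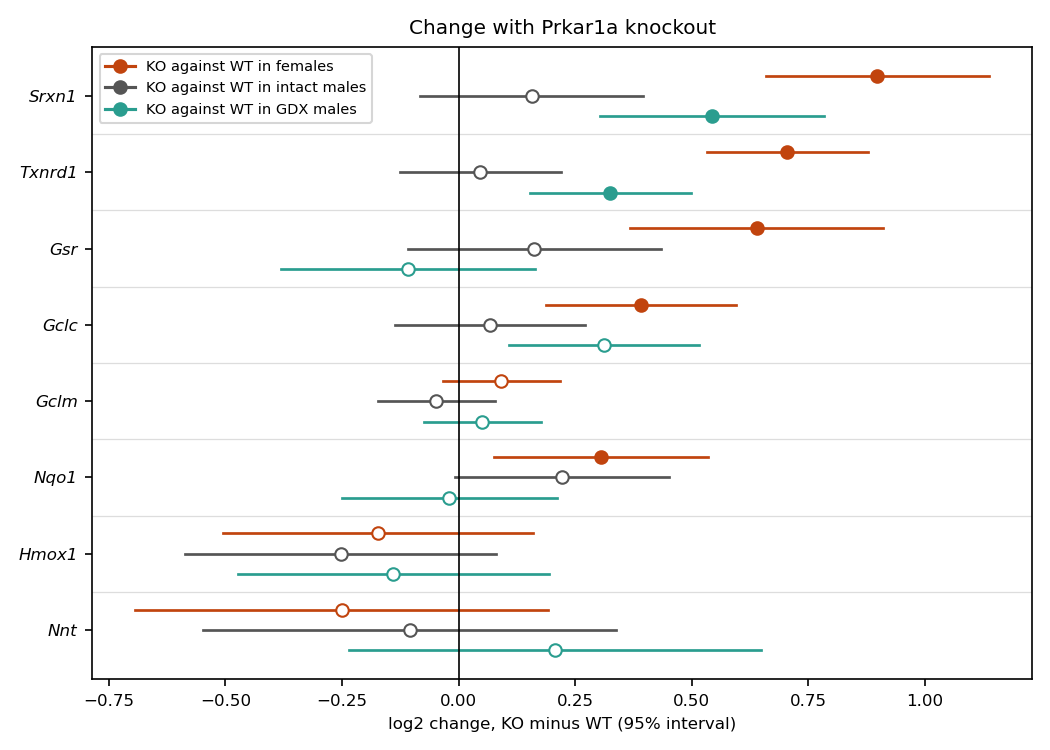
Log2 change of KO against WT for the 8 genes in females, intact males and GDX males; points are limma estimates, filled where the adjusted p was under 0.05, and bars their 95% intervals. In females Srxn1, Txnrd1, Gsr, Gclc and Nqo1 lie above 0, in GDX males Srxn1 and Txnrd1 passed the test, and in intact males no gene did.

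The difference between KO effects was tested as an interaction. The WT groups behind these effects differ in Cre and Prkar1a alleles. Sex or GDX and genotype thus cannot be told apart in the differences. The KO effect was larger in females than in intact males for Srxn1, by 0.74 ± 0.16 (limma adjusted p 0.00482), and for Txnrd1, by 0.66 ± 0.12 (limma adjusted p 0.00115). These were 2 of the 8 genes, beside 7.19% of all genes with a larger effect in females. The difference was 0.48 for Gsr (adjusted p 0.0823) and 0.32 for Gclc (adjusted p 0.118). The medulla list averaged 9.57 to 9.81 in KO intact males, against 9.22 to 9.66 in WT intact males, while in females it was lower in KO. With its mean as a covariate the differences were 0.79 for Srxn1 (adjusted p 0.0592) and 0.55 for Txnrd1 (adjusted p 0.0602), so neither passed.

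Against GDX males, the KO effect in females was larger for Gsr, by 0.75 ± 0.19 (limma adjusted p 0.0277), 1 of the 8 genes, beside 1.5% of all genes. Without WT female array 1 or 3, KO female array 4, WT GDX array 2 or 3, or KO GDX array 1, 3 or 4, this call was lost, as it was with the medulla or macrophage mean as a covariate. The difference was 0.38 for Txnrd1 (adjusted p 0.0766) and 0.36 for Srxn1 (adjusted p 0.242). Between GDX and intact males 2 of the 8 KO effects had an unadjusted limma p under 0.05, beside 1361 of all 14411 genes. They were Srxn1 at 0.39 and Txnrd1 at 0.28 (adjusted p 0.443 for both). After adjustment 0 of the 8 differed, beside 0.0278% of all genes called, 4 genes in all. Without KO GDX array 1 that number was 88, without WT GDX array 1 it was 30, and without any other single array it was 2 to 7. These contrasts use the same arrays as the comparisons above.

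Hmox1 differed by sex and gonadal state, and passed no test of KO against WT. Its enzyme degrades haem and releases iron, and macrophages that clear red cells express it strongly. It stood at 6.92, 7.29, 6.86 and 6.81 in KO GDX males, against 8.07, 8.40, 8.48 and 8.23 in KO intact males. It stood at 7.01, 7.09, 7.30 and 7.05 in WT GDX males, against 8.21, 8.78, 8.76 and 8.44 in WT intact males. Every GDX array lay below every intact male array of its genotype, and so did every female array given above.

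The fall of Hmox1 in GDX against intact males was -1.32 ± 0.16 in KO (limma adjusted p 2.76e-05) and -1.44 ± 0.16 in WT glands (limma adjusted p 1.43e-05). In females against intact males it was -1.46 ± 0.16 in KO (limma adjusted p 5.39e-07) and -1.54 ± 0.16 in WT glands (limma adjusted p 2.30e-06). Comparisons within a genotype share the intact male arrays. Females and GDX males differed by -0.13 in KO and -0.10 in WT glands, without passing the test. The macrophage list averaged 6.86 to 7.76 in KO GDX males, against 6.95 to 7.38 in KO intact males, and 7.22 to 7.66 in WT GDX males, against 6.89 to 7.57 in WT intact males. With that mean as a covariate the Hmox1 changes were -1.32 and -1.43 for GDX in KO and WT, and -1.45 and -1.54 for females in KO and WT. Of the erythrocyte list 1 of 8 members was tested, the others having no probe set of their own or not passing the filter on dim genes.

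Slc40a1, the iron exporter ferroportin, is named here after its values were seen, and no alternative was run for it. It comes from a list of quinone, carbonyl, haem and iron genes read below, of which 14 were tested. With GDX 3 of these were lower and 1 higher in KO glands, and 2 lower and 0 higher in WT glands. Slc40a1 was the only haem or iron gene among them, the others being Ephx1, Abcc4 and Nqo2. All genes lower and higher made up 8.59% and 6.85% in KO, and 2.55% and 1.94% in WT glands. Slc40a1 was lower in GDX than in intact males by -0.86 in KO (limma adjusted p 0.00232) and -0.67 in WT glands (limma adjusted p 0.0299). In females against intact males it was lower in KO (-0.71, limma adjusted p 0.00248), while in WT the difference of -0.25 did not pass (adjusted p 0.438).

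Gsr was the other gene of the 8 that differed between WT GDX and WT intact males. It stood at 8.46, 8.65, 8.73 and 8.34 in WT GDX males, against 7.76, 8.20, 8.16 and 7.60 in WT intact males. The arrays did not overlap, and the change was 0.62 ± 0.13 (limma adjusted p 0.00926, or 0.0805 with these 8 arrays alone). WT intact males had no Cre and the WT GDX males were mixed in genotype. GDX and genotype therefore cannot be told apart in this change. In that comparison 1.94% of all genes passed as higher and 2.55% as lower. In KO glands the change of Gsr with GDX was 0.35, with all GDX arrays above (limma adjusted p 0.0768).

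In KO glands, 2 of the 8 genes were higher in GDX than in intact males, Txnrd1 by 0.45 (limma adjusted p 0.00105) and Srxn1 by 0.39 (limma adjusted p 0.0247), beside 6.85% of all genes. Hmox1 and Nqo1 were lower, beside 8.59% of all genes. Nqo1 changed by -0.34 (limma adjusted p 0.0387), a call lost under 11 of 18 alternatives, among them leaving out any 1 of the KO intact males or KO GDX array 1 or 3. The arrays of Srxn1 overlapped, and its call was lost without KO intact male array 2, 3 or 4 or KO GDX array 1, 3 or 4. Txnrd1 in WT glands was 0.18 higher in GDX than in intact males, short of the threshold (adjusted p 0.27).

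KO females stood above KO intact males for 4 of the 8 genes, beside 17.8% of all genes. The differences were 0.78 for Gsr (limma adjusted p 6.31e-05), 0.72 for Srxn1 (3.93e-05), 0.67 for Txnrd1 (2.10e-06) and 0.48 for Gclc (0.0005). Prkar1a itself was also lower in KO females than in KO intact males, with overlap (-0.81, limma adjusted p 0.00596). Its part in these differences was not tested. All 13 medulla markers and 9 of 10 endothelial markers tested were lower in KO females than in KO intact males. With the medulla mean as a covariate the calls of Gsr and Gclc were lost (adjusted p 0.0893 and 0.187), and those of Srxn1 and Txnrd1 held. Hmox1 was lower, beside 23.1% of all genes. Gclm passed as higher only without KO female array 3 and with arrays centred on their median (limma adjusted p down to 0.0202). In WT glands none of the 8 was higher in females than in intact males and only Hmox1 was lower, beside 3.73% and 4.02% of all genes. There Srxn1 and Txnrd1 differed by -0.02 and 0.02.

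KO females also stood above KO GDX males for 3 of the 8, beside 8.72% of all genes. They were Gsr by 0.44 (limma adjusted p 0.0236), Srxn1 by 0.33 (0.04997) and, with overlapping arrays, Gclc by 0.30 (0.0402). The call of Gsr was lost with the medulla or macrophage mean as a covariate, and without KO female array 4 or KO GDX array 1, 3 or 4 (adjusted p up to 0.304). The calls of Srxn1 and Gclc were each lost under 13 of 19 alternatives. Nnt passed as lower with only the arrays compared and with the adipocyte mean as a covariate (limma adjusted p down to 0.0205). In WT glands 0 of the 8 differed between females and GDX males with limma, beside 0.902% of all genes called. An unadjusted p under 0.05 was reached by 2 of the 8 (Gclc 0.22 and Gsr -0.31), beside 1655 of all 14411 genes.

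**Figure D3:**
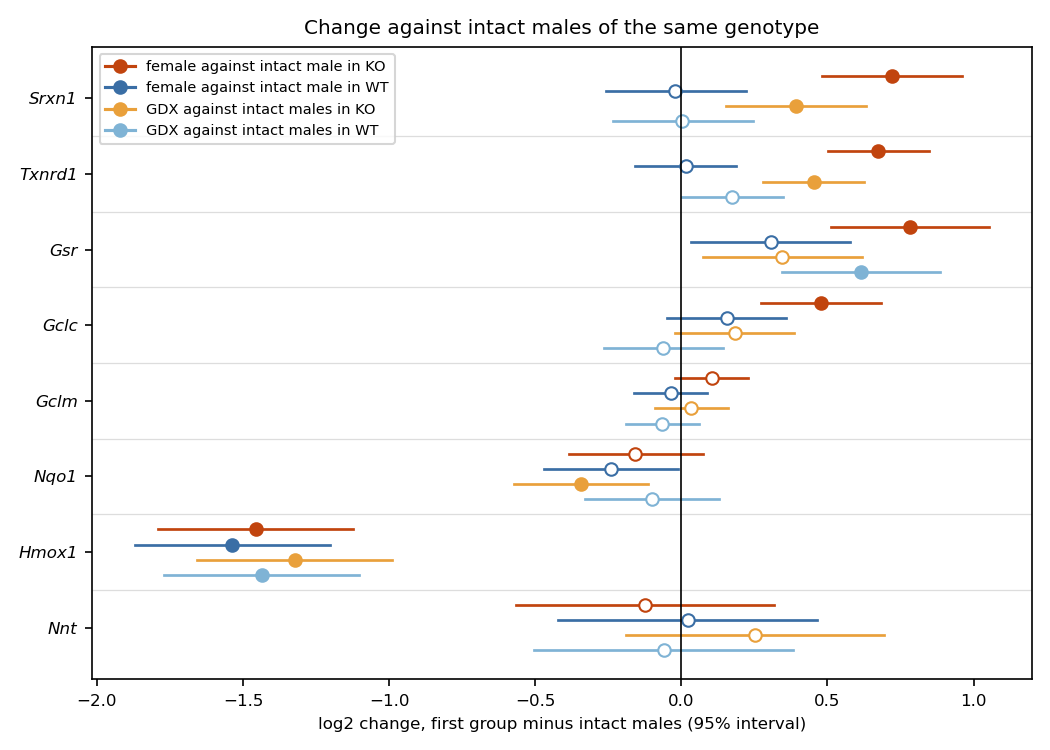
Log2 changes of the 8 genes between females and intact males and between GDX and intact males, in KO and in WT glands, as limma estimates with 95% intervals, filled where the adjusted p was under 0.05. Hmox1 is more than 1 log2 unit lower in all 4 comparisons, and Gsr in WT glands is higher in GDX than in intact males.

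Across the 6 groups, Srxn1 ran from KO females over KO GDX males and KO intact males down to the WT groups. The 3 WT groups did not differ beyond their spread, nor did KO and WT intact males. Txnrd1 began with KO females and KO GDX males as well, which did not differ past the threshold (0.22, adjusted p 0.0692). Gclm varied least, with group extremes from 8.26 in WT GDX males to 8.62 in KO females, and passed no test apart from the alternatives given above. Nnt was the brightest of the 8, and its widest group was WT GDX males, at 10.10, 10.63, 9.04 and 9.90, against 10.22, 9.97, 10.14 and 10.17 in KO GDX males. WT GDX array 3 was the lowest of all 24. The C57BL/6J substrain is known to carry a deletion in Nnt; which allele each mouse of this mixed background carried is not stated, and the part of that allele in these levels was not tested.

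Genes whose centred log2 levels over the 24 arrays were closest to those of the genes called were found among 13466 genes. The smallest root mean square differences to Srxn1 were those of Sec14l1 (0.163), Glce (0.178) and Adi1 (0.178). For Txnrd1 they were Ccnc (0.116), Vapa (0.119) and Slc25a39 (0.123), for Gsr Mtus1 (0.163), Pik3r1 (0.169) and Metrnl (0.176). For Gclc they were Eaf1 (0.094), Clint1 (0.104) and Amn1 (0.112), and for Nqo1 Atp6v0b (0.122), Zfp687 (0.126) and H13 (0.134).

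Around these genes, 8 lists of 121 further genes of the same pathways were read, of which 102 were tested. In KO females 31 of these (30.4%) were higher and 16 (15.7%) lower than in WT females, beside 13.9% and 18.7% of all genes. The lists too were chosen with earlier results of these data known, so the shares do not test an excess. In GDX males 4 were higher and 3 lower in KO than in WT glands, beside 2.26% and 1.97% of all genes. Among them were Gpx8 (-0.475, limma adjusted p 0.0162), Ddit3 (-0.432, 0.0156) and Gstp1 (0.347, 0.0330). Their calls were lost under 6, 4 and 8 of 20 alternatives. The others called in GDX males are given with their lists. In intact males 0 of 102 were called with limma, and 11 had an unadjusted p under 0.05, beside 1080 of all 14411 genes. The counts and median log2 changes that follow are those of KO females, where the median of all genes was -0.02 and the same 13.9% and 18.7% apply; several lists are near those shares. With the medulla mean as a covariate, the calls in KO females of Glrx5, Txnip, Ccs, Gpx1, Mgst2, Pgd, Cbr3 and Nfe2l3 were lost. With the adipocyte mean those of Glrx5, Txnip, Gpx1, Mgst2, Akr1b8, Osgin1 and Vldlr were lost, and with the macrophage mean those of Glrx5 and Gpx1. Both the medulla and the adipocyte list were lower in these glands, as given above.

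Glutathione synthesis and turnover had 3 of 14 higher and 0 lower (median 0.13). Slc3a2, the partner chain of the cystine importer, stood at 10.54, 10.54, 10.31 and 10.70 in KO females, against 9.55, 9.53, 9.56 and 9.47 in WT females, a change of 0.99 ± 0.11 (limma adjusted p 8.19e-07). It stood at 9.88, 10.31, 10.11 and 10.31 in KO GDX males, against 9.66, 9.46, 9.49 and 9.91 in WT GDX males, a change of 0.52 (limma adjusted p 0.00765, or 0.105 in the paired fit of the GDX arrays alone). KO females were all above WT females, while 1 WT GDX array overlapped. Chac2, which degrades glutathione, rose by 0.52 and the glutaredoxin Glrx5 by 0.30 in KO females. The call of Glrx5 was lost under 13 of 19 alternatives, among them leaving out any WT female array or KO female array 1, 2 or 4.

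The thioredoxin and peroxiredoxin list had 3 of 14 higher and 4 lower (median 0.04). Txn1, the substrate of Txnrd1, rose by 0.45 (limma adjusted p 1.17e-05) and Sesn2, a sestrin, by 0.58. Txnip, an inhibitor of thioredoxin, fell by 0.53 (adjusted p 0.115 with the medulla mean as a covariate) and the methionine sulfoxide reductase Msrb3 fell by 0.69. Among genes of peroxide and superoxide removal 1 of 10 was higher and 2 lower (median 0.08). Gpx8, a glutathione peroxidase of the endoplasmic reticulum, fell by 1.06 (limma adjusted p 5.33e-07), Ccs, the copper chaperone of SOD1, fell by 0.34, and Gpx1 rose by 0.24. The call of Gpx1 was lost without WT female array 1, 2 or 4 or KO female array 1, 3 or 4.

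Of the glutathione S-transferases 6 of 15 were higher and 3 lower (median 0.14). Gsta3 had the largest change of all 102. It stood at 8.69, 8.99, 8.23 and 9.12 in KO females, against 5.35, 6.06, 5.79 and 5.89 in WT females, a change of 2.98 ± 0.23 (limma adjusted p 3.88e-08), or 7.90-fold. Gsta3 stood at 7.33, 7.61, 8.01 and 8.04 in KO GDX males, against 6.19, 6.40, 6.28 and 6.59 in WT GDX males (change 1.39, limma adjusted p 0.00206, or 0.0163 in the paired fit), and neither pair of groups overlapped. Its close relatives in the Gsta family could share its probes, which makes the gene behind the signal uncertain. Mgst2 rose by 0.74 and Gsto1 by 0.70, while Gstt2 fell by 0.62. The call of Mgst2 was lost without WT female array 1 or KO female array 1.

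NADPH supply had 6 of 12 higher and 2 lower (median 0.27). Cytosolic Idh1 rose by 0.67 (limma adjusted p 2.19e-05), Aldh1l1 by 0.61 and Pgd, of the pentose phosphate pathway, by 0.53, a call lost without WT female array 4. Mitochondrial Idh2 went the other way, at 8.17, 8.23, 8.23 and 7.75 in KO females, against 9.12, 9.18, 9.22 and 9.28 in WT females, with no overlap and a fall of -1.11 (limma adjusted p 1.03e-07). In GDX males both moved in the same directions, Idh1 by 0.34 (limma adjusted p 0.0449) and Idh2 by -0.46 (limma adjusted p 0.00959). In the paired fit of the GDX arrays alone their adjusted p was 0.159 and 0.0627. The Idh1 call was also lost without any 1 of the WT GDX arrays or KO GDX array 2, 3 or 4.

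The quinone, carbonyl, haem and iron list had 2 of 14 higher and 2 lower (median -0.04). Cbr3, a carbonyl reductase, rose by 0.51 and Akr1b8 by 0.40, the Akr1b8 call being lost without WT female array 1 or KO female array 2. With the adipocyte mean as a covariate Akr1b8 changed by 0.14 (adjusted p 0.559), and with the medulla mean the adjusted p of Cbr3 was 0.085. The epoxide hydrolase Ephx1 fell by 0.94 and the exporter Abcc1 fell by 0.82. Of the NRF2 regulators 8 of 12 were higher and 0 lower (median 0.25). Bach1 (0.59), a repressor, led them, with Osgin1 (0.49), Nfe2l1 (0.43) and Nfe2l3 (0.37). Picked once their values were known, Nfe2l2 itself (0.25, limma adjusted p 0.00502) and its inhibitor Keap1 (0.20, limma adjusted p 0.0235) rose as well, so that activators and inhibitors were both among the genes that rose. Of the targets of ATF4, the amino acid stress factor, 2 of 11 were higher and 3 lower (median 0.06). Mthfd2 rose by 0.58, while Psat1 fell by 0.64, Ddit3 fell by 0.62 and Vldlr fell by 0.42. With the adipocyte mean as a covariate the change of Vldlr was -0.12 (adjusted p 0.486).

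**Figure D4:**
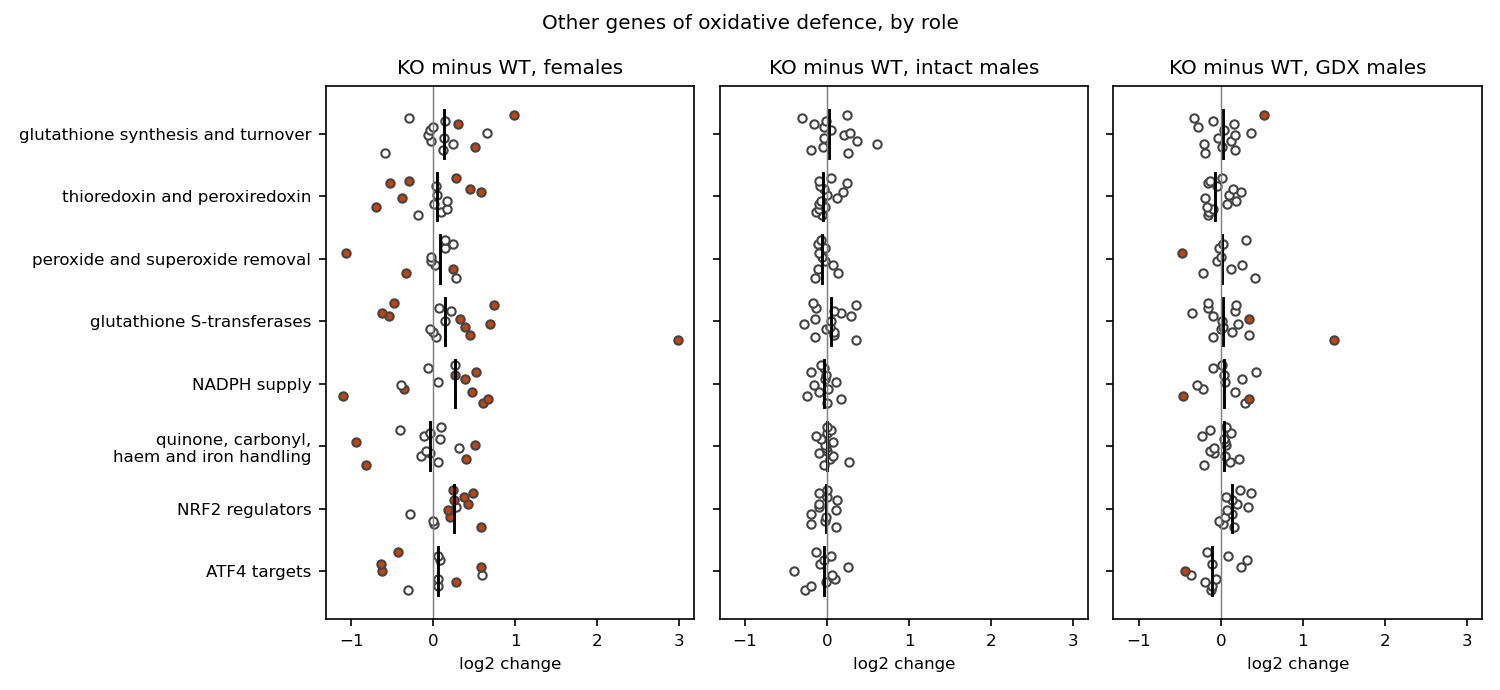
Log2 change of KO against WT for the tested genes of 8 pathway lists, in females, intact males and GDX males; each point is a gene, filled points passed the limma test and black lines are medians. Points spread widely in females, Gsta3 lying highest at 2.98, and no gene passed in intact males.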

How the data were processed

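The deposited values are log2 signals of 32202 probe sets on 24 arrays, which the authors made with RMA, per the submitters' processing notes; no version is named there. Per the labels, 500 ng of total RNA went into each labelling with biotin. Probe sets with 1 gene symbol (22943) were kept, 1731 with several symbols and 7528 with none were dropped, and each of 21957 genes was read from its brightest probe set. Genes over a log2 value of 5 on at least 4 arrays (14411) were tested.

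The comparisons were contrasts of 6 group means in limma (version 3.58.1, R 4.3.3), with 18 residual and 3.41 prior degrees of freedom, and Benjamini-Hochberg adjustment over all genes tested at 0.05. P-values measure the spread between arrays, whose number limits the precision. Named were all 10 members, Prkar1a, up to 4 called genes of each pathway list and KO comparison with the largest changes, and the 3 genes most like each called member. The members and lists were chosen with earlier results of these data known. In simulated data with 14411 genes and independent noise, 100 genes were changed by 0.5 and 100 by 1 on the log2 scale, in KO females alone. The fit for KO against WT in females recovered 78% and 94% of these. In the real comparison 4694 genes were called, so these shares do not give its rate of recovery.

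Replicate numbers were checked as pairs: same-numbered arrays of KO and WT GDX males deviated together (r 0.12 to 0.243 over 4 pairs), those of KO and WT females did not (-0.083 to 0.007). Those of WT GDX and WT intact males deviated together as well (r 0.093 to 0.244). A paired fit on the arrays compared alone was run only for KO against WT in GDX males. Alternatives tried were the filter, the scaling, the probe set rule, the arrays entered, the replicate block, marker means as covariates and leaving out each array.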

Additional observations from a re-analysis of the deposited data

Results flagged for a closer look

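On single arrays, 13 of 234 groups of 4 examined held an array that stood apart from the other 3, where chance gives about 1 in 20. Above the others in log2 level lay Glrx5 at 10.04 on WT intact male array 1, Sesn2 at 6.44 on KO GDX male array 2, Txnip at 11.46 on WT female array 4 and Ccs at 8.11 on KO female array 3. Likewise high were Gsta3 at 6.85 on KO intact male array 1, Gstp1 at 9.41 on WT intact male array 1, Cbr3 at 5.56 on WT intact male array 4, Nfe2l3 at 5.14 on KO GDX male array 2 and Mthfd2 at 6.93 on KO intact male array 1. Below the others lay Glrx5 at 10.02 on KO GDX male array 1, Idh2 at 7.75 on KO female array 4, Nfe2l3 at 4.71 on WT intact male array 4 and Ddit3 at 7.17 on WT GDX male array 3. None of these genes is among the 8 oxidative stress defence genes tested.

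The KO effect differed between females and males by the interaction test of limma for genes named in the report. The WT groups differ in Cre and Prkar1a alleles, so sex and genotype cannot be told apart in these differences. In females minus intact males the log2 difference was positive for Aldh1l1 (0.61), Bach1 (0.47), Chac2 (0.56), Gsta3 (2.62), Gsto1 (0.97), Gstp1 (0.47) and Idh1 (0.49). It was positive as well for Nfe2l1 (0.52), Osgin1 (0.59), Pgd (0.72), Slc3a2 (0.75), Srxn1 (0.74), Txn1 (0.48) and Txnrd1 (0.66). It was negative for Abcc1 (-0.78), Ccs (-0.47), Ephx1 (-1.01), Gpx8 (-0.96), Gstt2 (-0.80), Idh2 (-0.86), Msrb3 (-0.66) and Txnip (-0.77). Adjusted p-values over all genes reached at most 0.0274. In females minus GDX males the difference was positive for Gsr (0.75) and Gsta3 (1.60) and negative for Abcc1 (-0.61), Ephx1 (-0.99), Gpx8 (-0.58), Idh2 (-0.64) and Msrb3 (-0.52), with adjusted p-values of at most 0.0394. With the medulla mean as a covariate 15 of the 22 differences from intact males were lost. The other 7, those of Abcc1, Ephx1, Gpx8, Gsta3, Idh2, Msrb3 and Txn1, kept their call under all 27 alternatives. The difference of Pgd was also lost without WT female array 4, KO female array 4, WT intact male array 2 or KO intact male array 2 or 3, and that of Osgin1 without KO female array 4 or WT intact male array 1. With the adipocyte mean those of Gstp1, Idh1 and Osgin1 were lost. Of the differences from GDX males, those of Gsta3, Idh2, Gsr, Gpx8 and Msrb3 were lost with the medulla mean. That of Gpx8 was lost under 15 of 27 alternatives (adjusted p up to 0.169), among them leaving out WT female array 1, 2 or 3, KO female array 1 or 4, WT GDX array 1, 2 or 4, or KO GDX array 1 or 2. That of Msrb3 was lost under 9, among them leaving out WT female array 1, 2 or 3, KO female array 1, WT GDX array 4 or KO GDX array 1. That of Gsr was lost under 10, as the report gives. Abcc1 and Ephx1 kept theirs under all 27. No cause of these differences was tested.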

How the results depend on the processing

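Of 25 member results called, 10 kept their call under every alternative run, among them the rises of Srxn1, Txnrd1 and Gsr in KO females and the 4 falls of Hmox1 (-1.70 to -1.26). No value reversed to a called opposite direction, and scaling moved the median of all genes by at most 0.066 on the log2 scale. With the medulla mean as a covariate, a mean that itself differed between KO and WT females, the number of the 8 genes called was 3 in place of 5 in KO against WT females, 3 in place of 5 in KO females against KO intact males, 2 in place of 4 in KO GDX against KO intact males, 0 in place of 3 in KO females against KO GDX males, and 0 in place of 2 and of 1 for the KO effect in females minus intact males and minus GDX males. With the macrophage mean, the last was 0 and KO females against KO GDX males gave 1; so did no filter on dim genes and a further quantile normalization. With only the arrays compared, a fit with fewer samples, KO against WT in GDX males gave 0, GDX against intact males 2 in KO and 1 in WT.

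With the replicate block on all 24 arrays, KO females against KO GDX males gave 1 in place of 3 and no other count of members changed. With the GDX arrays alone and the block, paired by number, KO against WT gave 0.

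Leaving out each array in turn, the number called was 4 to 6 in KO against WT females, 1 to 3 in GDX males, 2 to 4 for GDX against intact males in KO, 5 to 6 for females against intact males in KO, 0 to 3 for females against GDX males in KO, 2 to 3 for the KO effect in females minus intact males and 0 to 2 minus GDX males. Genes called over the whole table fell to 2543 with the medulla mean and 2894 with the adipocyte mean in KO against WT females, from 4694. The KO effect in females minus intact males had 291 with the medulla mean in place of 2302, minus GDX males 79 in place of 477. KO against WT in GDX males had 49 with its arrays alone, and 118 with the block, in place of 609; without single arrays it had 214 (KO GDX array 3) to 1180 (KO GDX array 1). The KO effect in GDX minus intact males had 4 genes, 2 to 88 without single arrays.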
